A study of Homo sapiens with 11 samples.

Results

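The genes described here are 10 transcriptional outputs and components of the bone morphogenetic protein (BMP) pathway: ID1, ID2, ID3, ID4, SMAD6, SMAD7, SMAD9, ATOH8, BMP4 and BAMBI. They are 10 of the 26485 gene symbols counted, and all 10 have a row in both count tables. They were chosen by symbol, with the differences between ODC and CTRL at 24 h and at 2 h in view, so those differences are given as a description with no test. RNA came from Caki-1-SR clone 1, a single sunitinib-resistant clone of Caki-1, a human clear cell renal cell carcinoma (ccRCC) line. All 11 libraries share this background and culture in 1 µM sunitinib, a receptor tyrosine kinase inhibitor. The optimized drug combination (ODC) held the ruthenium compound Rapta-C at 2 µM, the EGFR inhibitor erlotinib at 1 µM, the diabetes drug metformin at 1 µM and the plant lactone parthenolide at 5 µM. ODC was given for 24 h (n = 3) or 2 h (n = 3), and the control (CTRL) had 3 libraries at 24 h and 2 at 2 h. The study calls its control untreated in one place and sham-treated in another. The labels give each time a month of its own and do not say what was done in it.

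BMP ligands bind paired type I and type II receptors, which phosphorylate SMAD1, SMAD5 and SMAD9, and these enter the nucleus with SMAD4. The ID genes are classic direct targets of that complex, and their products sequester E proteins and so block basic helix-loop-helix (bHLH) transcription factors. SMAD6 and SMAD7 are inhibitory SMADs that feed back on the receptors, SMAD6 preferentially in the BMP branch and SMAD7 in the BMP and TGF-beta branches alike. ATOH8 is a bHLH factor that responds to BMP signalling in hepatocytes and endothelial cells, BMP4 is a ligand, and BAMBI is a pseudoreceptor without a kinase domain.

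Promoter sequence is shown first because SMAD-responsive genes are commonly described by short SMAD-binding letters near their start. RefSeq promoters of GRCh38.p14, from 250 bases before to 50 after the start, were matched for 10 of 10 genes and searched on both strands. Each gene had 1 window, and any other annotated start was not searched. The windows of ID2, SMAD9, ATOH8 and BMP4 lie inside the span that GENCODE 44 gives the gene. The motifs were GGCGCC (a GC-rich SMAD1/5 site), GTCTAGAC (the palindromic SMAD-binding element), CAGAC (the shorter SMAD box, GTCTG on the other strand) and the spaced BMP-responsive element, which joins GGCGCC to GTCT and so contains the first. The 250 bases before the start are printed for SMAD6, which held the palindrome, for ATOH8 and ID1, which held none of these letters, and for BMP4, whose RNA lay on the other side of CTRL. Capitals mark matches to GGCGCC, GTCTAGAC or CAGAC.
SMAD6 (chr15:66701986-66702235, plus strand): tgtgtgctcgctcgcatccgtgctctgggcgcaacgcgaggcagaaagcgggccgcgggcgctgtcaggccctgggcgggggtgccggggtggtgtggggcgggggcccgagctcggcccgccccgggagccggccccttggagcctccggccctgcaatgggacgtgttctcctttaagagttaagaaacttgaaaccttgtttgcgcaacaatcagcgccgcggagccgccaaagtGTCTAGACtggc
ATOH8 (chr2:85753741-85753990, plus strand): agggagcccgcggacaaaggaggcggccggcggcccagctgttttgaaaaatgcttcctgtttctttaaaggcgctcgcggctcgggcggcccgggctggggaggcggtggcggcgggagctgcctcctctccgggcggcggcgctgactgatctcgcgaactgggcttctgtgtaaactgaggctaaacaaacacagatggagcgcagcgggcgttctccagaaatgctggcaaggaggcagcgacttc
ID1 (chr20:31605039-31605288, plus strand): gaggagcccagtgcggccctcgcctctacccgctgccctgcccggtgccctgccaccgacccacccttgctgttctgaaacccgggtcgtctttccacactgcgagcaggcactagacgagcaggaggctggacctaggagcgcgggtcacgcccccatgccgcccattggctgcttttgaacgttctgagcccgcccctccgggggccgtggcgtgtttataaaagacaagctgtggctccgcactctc
BMP4 (chr14:53955051-53955300, minus strand): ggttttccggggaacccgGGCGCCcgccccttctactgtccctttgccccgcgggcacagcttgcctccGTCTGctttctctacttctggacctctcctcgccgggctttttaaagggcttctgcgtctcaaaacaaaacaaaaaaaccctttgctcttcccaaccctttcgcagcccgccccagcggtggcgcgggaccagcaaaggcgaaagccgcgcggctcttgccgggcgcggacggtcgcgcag
GTCTAGAC occurred in the SMAD6 window, with its first base 12 bases before the start, and in 0.201% of all 27305 promoters of this length. GGCGCC was found in 2 of the 10 windows (2 copies in BMP4 and 3 in BAMBI) and in 19.0% of all promoters. CAGAC or its complement was found in 6 of the 10 (ID3, ID4, SMAD7, SMAD9, BMP4 and BAMBI) and in 45.0% of all promoters. The spaced element was in 0 of the 10 and in 0.11% of all promoters. A match here is a description of letters and not of binding, and a missing match says only that the letters are not in this window.

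Between 17785229 and 20882856 reads were counted per library at 24 h, and between 25782895 and 31118349 at 2 h. The floor of 3 counts corresponded to 0.0943 to 0.168 CPM (reads of a gene relative to the library's total, scaled with TMM factors over all 11 libraries). Of 10 renal epithelial and ccRCC markers, 8 were above the floor in every group, led by VIM, KRT8, PAX8 and KRT18, whereas CA9 and PAX2 reached at most 1 and 4 counts. CTRL 2 h replicate 1 stood apart. It held 16840 genes with a count against 15761 to 15973 in the other 2 h libraries. The fibroblast collagen gene COL1A2 stood at 36.9 CPM in it and at no more than 0.354 CPM in any other library, LUM at 2.47 against 0.129 CPM, DCN at 2.78 against 0.108 CPM and the epithelial gene EPCAM at 3.80 against 0.869 CPM. The summed level of the 5 fibroblast markers was 46.4 CPM in that library and 3.47 CPM in the other CTRL 2 h library. The endothelial and immune lists of 5 genes each summed to at most 1.67 and 2.72 CPM in any library. The sum of the 5 fibroblast markers was 6.84 to 22.0 CPM in CTRL and 20.7 to 49.3 CPM in ODC at 24 h, nearly all of it PDGFRB (up to 48.9 CPM). The main results that use the 2 h controls are given with and without CTRL 2 h replicate 1. The part of the marker RNA in the results at either time was not tested. In bulk RNA, fewer cells expressing a gene and less RNA per cell cannot be told apart.

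At 24 h, all 4 ID genes, SMAD6, SMAD9 and ATOH8 were higher in each ODC library than in any CTRL library. SMAD7 overlapped between the groups, BMP4 was lower in each ODC library, and BAMBI was close to the floor. Thus 9 of 10 genes passed the filter on low counts, 7 were at least 2-fold higher (background 2.16% of 12689 genes), 7 did not overlap upwards (background 8.5%) and 1 did not overlap downwards (background 9.36%). At 2-fold and an adjusted p under 0.05, 1 gene, ATOH8, was called (background 0.15% higher). This contrast chose the genes, so nothing is read from these shares. The median log2 fold change of the 9 was 1.59, against 0.00089 over all genes.

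**Figure D1:**
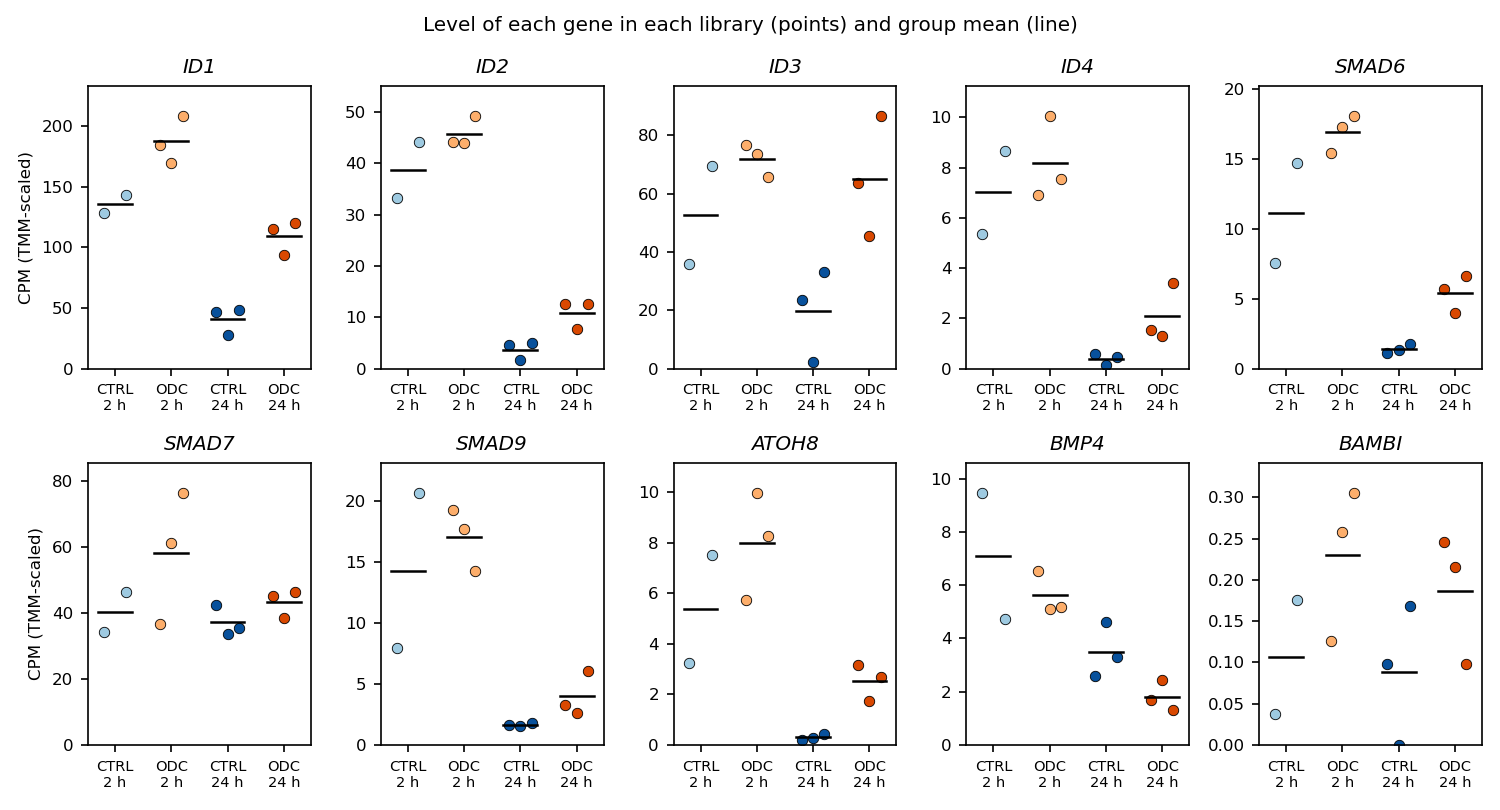
Level of each gene in CPM (vertical axis, linear, from 0, scaled separately in each panel) in CTRL and ODC libraries at 2 h and 24 h, with points for libraries and a line for each group mean. ID2, ID4, SMAD6, SMAD9 and ATOH8 are lowest in CTRL at 24 h, intermediate in ODC at 24 h and highest at 2 h, SMAD7 is nearly level across groups apart from ODC at 2 h, and BAMBI stays under 0.31 CPM.

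Among the ID genes at 24 h, ID1 (hg38 chr20:31605283-31606515) was the most abundant. Its level was 47.0, 27.3 and 48.5 CPM in the CTRL replicates and 115, 93.3 and 120 CPM in the ODC replicates. The lowest treated library was thus nearly double the highest control. The mean ± SD was 40.9 ± 11.8 CPM in CTRL and 109 ± 14.2 CPM under ODC (n = 3 each), a log2 fold change of 1.43 ± 0.215 (SE), or 2.7-fold. ID3, which is often co-regulated with ID1, stood at 23.5, 2.22 and 33.2 CPM in CTRL and at 63.7, 45.3 and 86.6 CPM under ODC. Its control replicate 2 was far below its neighbours, with 42 reads against 482 and 592. The log2 fold change of 1.74 ± 0.706 (3.35-fold) had the widest error among the 9 genes, and was 1.21 without that library.

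ID2, which like ID1 and ID3 lacks a DNA-binding domain of its own, was at 4.49, 1.64 and 4.88 CPM in CTRL and 12.5, 7.70 and 12.5 CPM under ODC at 24 h. Again control replicate 2 was the lowest library. The log2 fold change was 1.59 ± 0.381, or 3.00-fold. ID4 was scarcer, with 12, 3 and 8 reads in CTRL and 31, 24 and 70 under ODC, or 0.586, 0.159 and 0.449 CPM against 1.52, 1.29 and 3.42 CPM. The groups did not overlap, but the control values rest on few reads. The log2 fold change was 2.37 ± 0.538 (5.18-fold).

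Among the SMAD genes, SMAD6 (hg38 chr15:66702236-66782849) was at 1.07, 1.32 and 1.74 CPM in CTRL at 24 h and at 5.65, 3.98 and 6.64 CPM under ODC. Each treated library was more than double each control library, and the log2 fold change was 1.99 ± 0.280 (3.98-fold). SMAD9, the receptor-regulated SMAD whose own RNA is known to respond to BMP, was at 1.66, 1.54 and 1.80 CPM in CTRL, the tightest control group of the 10 genes. Under ODC it was at 3.29, 2.58 and 6.05 CPM, and the log2 fold change of 1.27 ± 0.337 (2.41-fold) was 0.84 without ODC replicate 3. SMAD7 was at 42.4, 33.7 and 35.5 CPM in CTRL and at 45.0, 38.4 and 46.4 CPM under ODC. Its groups overlapped, with a log2 fold change of 0.23 ± 0.127.

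ATOH8 (hg38 chr2:85751344-85791383) had the largest fold change of the 9 and ranked 4 of the 12689 genes tested at 24 h. It had 4, 5 and 8 reads in CTRL and 64, 32 and 55 under ODC. These correspond to 0.195, 0.265 and 0.449 CPM against 3.15, 1.72 and 2.68 CPM. All control counts lay under the filter's minimum count of 10, so ATOH8 passed the filter through its treated libraries. The contrast also chose the gene, so nothing is read from its rank. No control library came near the treated range, and the log2 fold change was 3.07 ± 0.399, or 8.37-fold.

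BMP4, the ligand, differed from the other genes in direction. At 24 h it was at 2.59, 4.61 and 3.31 CPM in CTRL and at 1.67, 2.42 and 1.32 CPM under ODC, so that the highest treated library lay just under the lowest control. The log2 fold change was -0.94 ± 0.320, or 1.92-fold lower. BAMBI had 2, 0 and 3 reads in CTRL and 5, 4 and 2 under ODC at 24 h, and between 1 and 9 reads at 2 h, so no fold is given. In the order of the fold changes at 24 h, genes on either side of the 2-fold line were SMAD9 (2.41-fold) just inside and SMAD7 (1.18-fold) just outside. GENCODE 44 places 145 exonic bases of ID2 opposite ID2-AS1 and 506 of BMP4 opposite an antisense lncRNA. The libraries were stranded, but the strand setting of the counting is not given in the sources used here, so reads of these pairs may not have been kept apart.

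At 2 h the same genes differed little between ODC and CTRL, and the size of that difference depended on 1 control library. All 9 filtered genes had a log2 fold change between -0.34 and 0.60, with a median of 0.45 against -0.00603 over all genes. Of these, 2 did not overlap upwards (ID1 and SMAD6; background 7.92% of 13332 genes) and 0 reached 2-fold (background 0.323% higher). ID1 was at 129 and 143 CPM in CTRL and at 184, 170 and 208 CPM under ODC, a log2 fold change of 0.46 ± 0.113 (1.38-fold). SMAD6 was at 7.53 and 14.7 CPM in CTRL and at 15.4, 17.3 and 18.03 CPM under ODC. Its treated libraries were tightly grouped and the 2 controls were not. The log2 fold change of SMAD6 was 0.60 ± 0.252.

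For the other genes at 2 h, the ODC libraries overlapped the range of the 2 controls. ATOH8 was at 3.23 and 7.51 CPM in CTRL against 5.72, 9.98 and 8.25 CPM under ODC (log2 fold change 0.57 ± 0.362). SMAD9 was at 7.91 and 20.7 CPM against 19.3, 17.7 and 14.2 CPM (0.26 ± 0.340). ID3 was at 35.7 and 69.5 CPM against 76.9, 73.6 and 65.6 CPM (0.45 ± 0.237), and in each of these 3 genes CTRL replicate 1 was the lowest library. ID2 (0.24), ID4 (0.22) and SMAD7 (0.53) were also above 0, and BMP4, at 9.47 and 4.73 CPM in CTRL against 6.54, 5.12 and 5.19 CPM, was at -0.34 ± 0.293. No gene of the whole table was called at 2 h by edgeR's quasi-likelihood test (0 of 13332, with 312, or 2.34%, at an unadjusted p under 0.05) or by DESeq2 (0, with 320).

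Without CTRL 2 h replicate 1, the library with the fibroblast collagen reads, the lone remaining control is assumed to vary like the treated group. The median log2 fold change of the 9 genes at 2 h was then 0.095. The values of ID4 (-0.08), SMAD9 (-0.27) and BMP4 (0.25) changed sign, and SMAD6 was at 0.21. ID1 moved least, between 0.38 and 0.55 over the settings tried. Without CTRL 2 h replicate 2 in its place, the median was 0.77, 4 of the 9 genes were at least 2-fold higher, and 40 genes of the whole table were called.

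**Figure D2:**
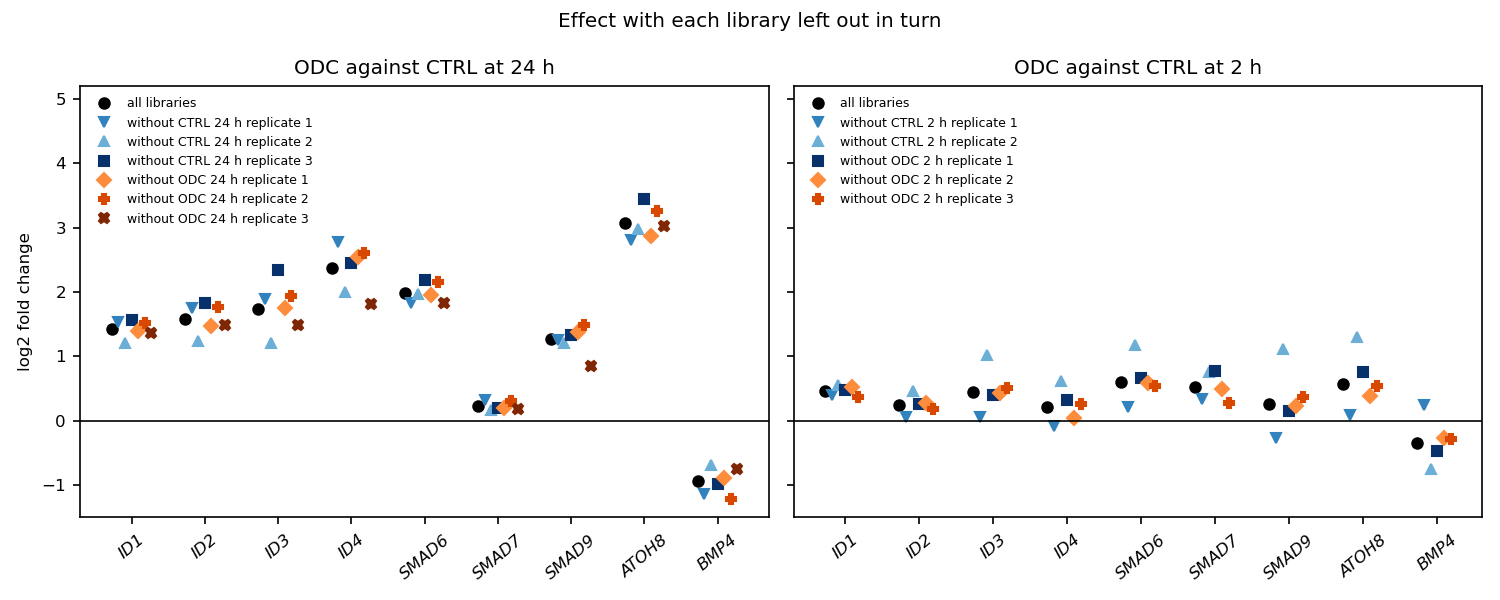
log2 fold change of ODC against CTRL (vertical axis) for the 9 filtered genes at 24 h (left) and 2 h (right), with all libraries and after leaving out single libraries (symbols). At 24 h 7 genes stay above 0.8 in every fit, while at 2 h the fits without CTRL replicate 1 and without CTRL replicate 2 lie on either side of the others for most genes.

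Set side by side, the 24 h effect was the larger for the ID genes, SMAD6, SMAD9 and ATOH8, and 6 of the 9 genes had a difference of effects of at least 1 on the log2 scale (background 3.27% of 13333 genes higher). The 24 h minus 2 h difference in log2 fold change was 2.49 ± 0.615 for ATOH8, 2.15 ± 0.626 for ID4, 1.38 ± 0.405 for SMAD6 and 1.33 ± 0.432 for ID2. It was 1.28 ± 0.865 for ID3, 1.01 ± 0.543 for SMAD9 and 0.95 ± 0.276 for ID1. SMAD7 (-0.31 ± 0.335) and BMP4 (-0.62 ± 0.463) were on the other side of 0. The count was 3 of 9 without CTRL 2 h replicate 2 and without CTRL 24 h replicate 2, and 5 to 7 with any other library left out. Without CTRL 2 h replicate 1 the difference was 2.97 for ATOH8, 1.78 for SMAD6, 1.54 for SMAD9 and -1.21 for BMP4, and without CTRL 2 h replicate 2 it was 1.75, 0.81, 0.15 and -0.21. These differences derive from the contrasts that chose the genes and carry no test.

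**Figure D3:**
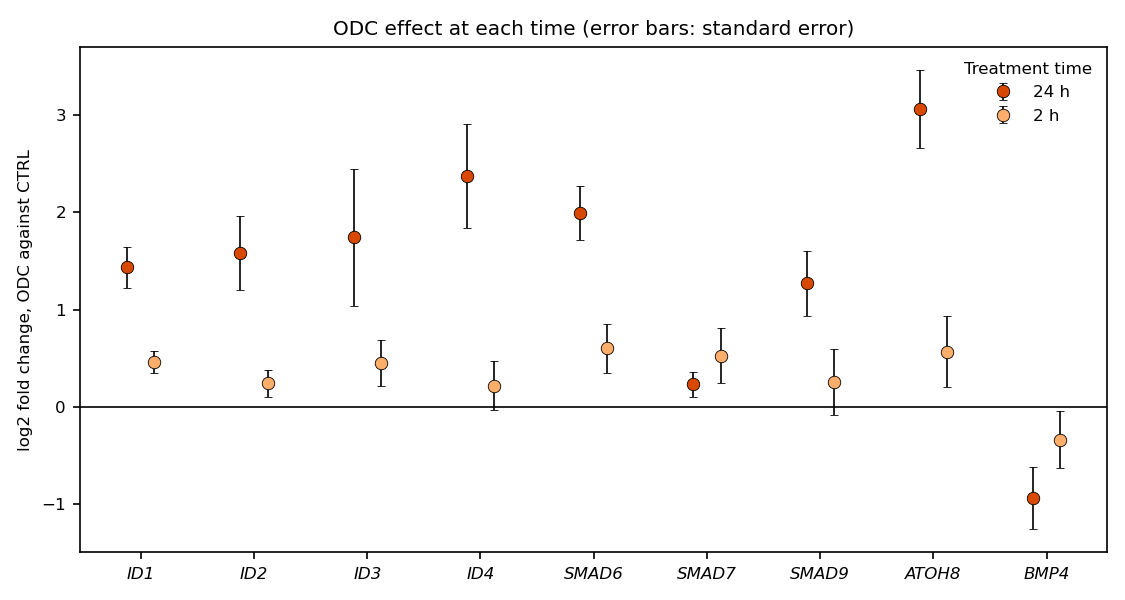
log2 fold change of ODC against CTRL (vertical axis) with its standard error for each of the 9 filtered genes (horizontal axis) at 24 h and 2 h, each from the fit of its own time. ATOH8 (3.07), ID4 (2.37) and SMAD6 (1.99) lead at 24 h, and no value at 2 h exceeds 0.60.

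The levels behind the folds differed sharply between the 2 sets of controls. Both sets also serve in the contrasts that chose the genes, and a choice for high ODC over CTRL at 24 h favours genes that are low in the 24 h controls, so these differences are a description with no test. Time in culture and labelled month cannot be told apart in them. In the joint edgeR fit, ATOH8 was 17.7-fold lower in CTRL at 24 h than in CTRL at 2 h, ID4 17.3-fold lower and ID2 10.5-fold lower. SMAD9 was 8.58-fold lower, SMAD6 8.09-fold lower and ID1 3.31-fold lower. BMP4 was 2.03-fold lower, ID3 had a log2 fold change of -1.42 ± 0.646, and SMAD7 was at -0.11 ± 0.249. An approximate 95% interval for SMAD7, which takes the error as normal and so is somewhat narrow for few libraries, ran from -0.60 to 0.37. The size depended on which 2 h control was used. Without CTRL 2 h replicate 1 the log2 fold change was -4.63 for ATOH8, -3.63 for SMAD9, -3.42 for SMAD6, -1.82 for ID3 and -0.44 for BMP4. Leaving out CTRL 2 h replicate 2 gave -3.41, -2.24, -2.45, -0.86 and -1.43 in the same order, and SMAD7 was at 0.12. Of the 9 genes, 7 passed the thresholds as lower at 24 h (background 5.09% of 13333 genes), and in 8 the control groups did not overlap, all lower at 24 h (background 26.3%). Nothing is read from these shares.

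The treated libraries of the 2 times were also compared, after the data were seen. They are the treated arms of the contrasts that chose the genes, so the values are again a description. In ODC at 24 h against ODC at 2 h, SMAD9 was 4.27-fold lower, ID2 4.19-fold, ID4 3.90-fold, ATOH8 3.16-fold, BMP4 3.12-fold, SMAD6 3.11-fold and ID1 1.71-fold. ID3 had a log2 fold change of -0.14 and SMAD7 of -0.42. By the thresholds 6 of the 9 genes were lower (background 5.04%), from which nothing is read.

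On the CPM scale, the mean of ODC at 24 h was therefore below that of CTRL at 2 h for most genes even though it was above its own control. It was 27.8% of the CTRL 2 h mean for SMAD9, 28.2% for ID2, 29.6% for ID4, 46.9% for ATOH8, 48.8% for SMAD6 and 80.6% for ID1. In these 6 genes every ODC 24 h library lay below both CTRL 2 h libraries. The CTRL 24 h means were 11.6%, 9.48%, 5.67%, 5.64%, 12.4% and 30.2% of the same level, in that order. Against CTRL 2 h replicate 2 alone, ODC at 24 h was at 19.3% for SMAD9, 24.7% for ID2, 24.0% for ID4, 33.5% for ATOH8, 36.9% for SMAD6 and 76.6% for ID1. ID3 was the exception among the ID genes, with treated 24 h libraries that overlapped the 2 controls at 2 h.

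Per kilobase of annotated exon (RPKM, from the union of exons in GENCODE 44), ID1 was the highest of the 10 genes in each group, from 33.2 ± 9.58 in CTRL at 24 h to 152 ± 15.6 in ODC at 2 h (n = 3 each). ID3 followed at 13.1 ± 10.6 and 48.1 ± 3.87 RPKM. ID3 in CTRL at 24 h did not differ from SMAD7 (9.43 ± 1.17 RPKM) beyond its spread. ID2 ranked 4 of 10 at 24 h, behind SMAD7, and 3 of 10 at 2 h, ahead of it. ATOH8 was at 0.0326 ± 0.0141 RPKM in CTRL and 0.271 ± 0.0782 RPKM in ODC at 24 h, so the gene with the largest fold change was also among the least abundant.

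The upstream and regulatory parts of the pathway were examined with lists written from general knowledge. In the main fits no gene of these lists had an adjusted p under 0.05 for ODC against CTRL at either time, against 24 genes of the whole table at 24 h at any fold (background 0.189%). Of 12 further BMP ligands, 2 were measurable at 24 h: BMP2 (log2 fold change 0.18, adjusted p = 0.907) and BMP6 (-0.10, adjusted p = 0.958). Among 8 measurable receptors and co-receptors the smallest adjusted p was 0.484, for the type II receptor BMPR2, and the median was -0.0034. The 5 SMADs that carry the signal (SMAD1, SMAD5, SMAD2, SMAD3 and SMAD4) lay between -0.12 and -0.02, with adjusted p of at least 0.768. Of the 11 measurable intracellular regulators of SMADs, such as SMURF1 and SKI, 5 were above 0 and 6 below. The E proteins TCF3, TCF4 and TCF12, which ID proteins bind, were at 0.03, -0.19 and -0.12.

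Extracellular antagonists and modulators included CRIM1, which binds BMPs at the cell surface. It was at 636, 650 and 762 CPM in CTRL and 876, 993 and 1044 CPM in ODC at 24 h, a log2 fold change of 0.52 ± 0.111 that did not pass the adjustment (unadjusted p = 0.00152, adjusted p = 0.125, edgeR). CRIM1 passed with DESeq2 (adjusted p = 0.00674) and with adjacent library numbers as pairs (adjusted p = 0.0154). Of 13 other BMP-responsive genes, 7 were measurable at 24 h and 3 of these were above 0. RUNX2, a bone and cancer transcription factor, had the smallest p among them (-0.30 ± 0.115, adjusted p = 0.344). The median of these 7 was -0.10.

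TGF-beta-type output was set beside the BMP-type genes in the same way. Of 17 TGF-beta-type genes, 16 were measurable at 24 h, 12 were above 0, and 5 were higher and 1 lower at an unadjusted p under 0.05 (background 12.2% in either direction). Their median log2 fold change was 0.24, against 1.59 for the BMP-type genes. The difference of the medians was not tested, because the BMP-type genes were chosen on this contrast. The TGF-beta feedback gene PMEPA1 was at 0.37 ± 0.104 (adjusted p = 0.213), the basement membrane collagen gene COL4A1 at 0.74 ± 0.224 (adjusted p = 0.242) and the transcription factor SNAI1 at 0.79 ± 0.250 (adjusted p = 0.261). All 3 had every ODC library above every CTRL library. COL4A1 passed with DESeq2 (adjusted p = 0.0383) and with the pairs (adjusted p = 0.0303, edgeR), and SNAI1 with the pairs (adjusted p = 0.0408, edgeR). IL11, named after its values were seen, had the largest value at 2.78 ± 1.33, which rests on ODC replicate 3 (11.03 CPM against 0.738 and 0.269 CPM in the other treated libraries). At 2 h the TGF-beta-type median was 0.25, against 0.45 for the BMP-type genes, and the smallest adjusted p was 1.00. PMEPA1 (0.61 ± 0.229), SPHK1 (0.36 ± 0.124) and TGFB1I1 (0.28 ± 0.118) had an unadjusted p under 0.05 there. Without CTRL 2 h replicate 1 the order of the medians turned, with 0.30 for the TGF-beta-type and 0.095 for the BMP-type genes.

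Of the TGF-beta and activin ligands and receptors, TGFB2 was at 84.8, 81.9 and 118 CPM in CTRL and 182, 188 and 146 CPM in ODC at 24 h. Its log2 fold change was 0.87 ± 0.170 (adjusted p = 0.104, edgeR), and it had an adjusted p under 0.05 in 4 alternative fits (0.000364 to 0.047). The receptor TGFBR2 was at -0.52 ± 0.136 (adjusted p = 0.180), and passed with DESeq2 (adjusted p = 0.0398) and with the pairs (adjusted p = 0.0237). At 2 h the ligand TGFB1 was at 0.30 ± 0.0938 (adjusted p = 1.00). Of the renal markers at 24 h, LHX1 (-1.46, adjusted p = 0.0923), KRT18 (-0.71, adjusted p = 0.128) and KRT8 (-0.62, adjusted p = 0.202) were lower in each ODC library, and the summed level of the 10 markers was 4856 to 5728 CPM in CTRL and 3854 to 4810 CPM in ODC. LHX1 passed in 4 alternatives (adjusted p from 5.25e-06 to 0.0317), KRT18 in 3 (0.00347 to 0.0423) and KRT8 with DESeq2 (0.0347). Whether these have a part in the values of the BMP-type genes was not tested.

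**Figure D4:**
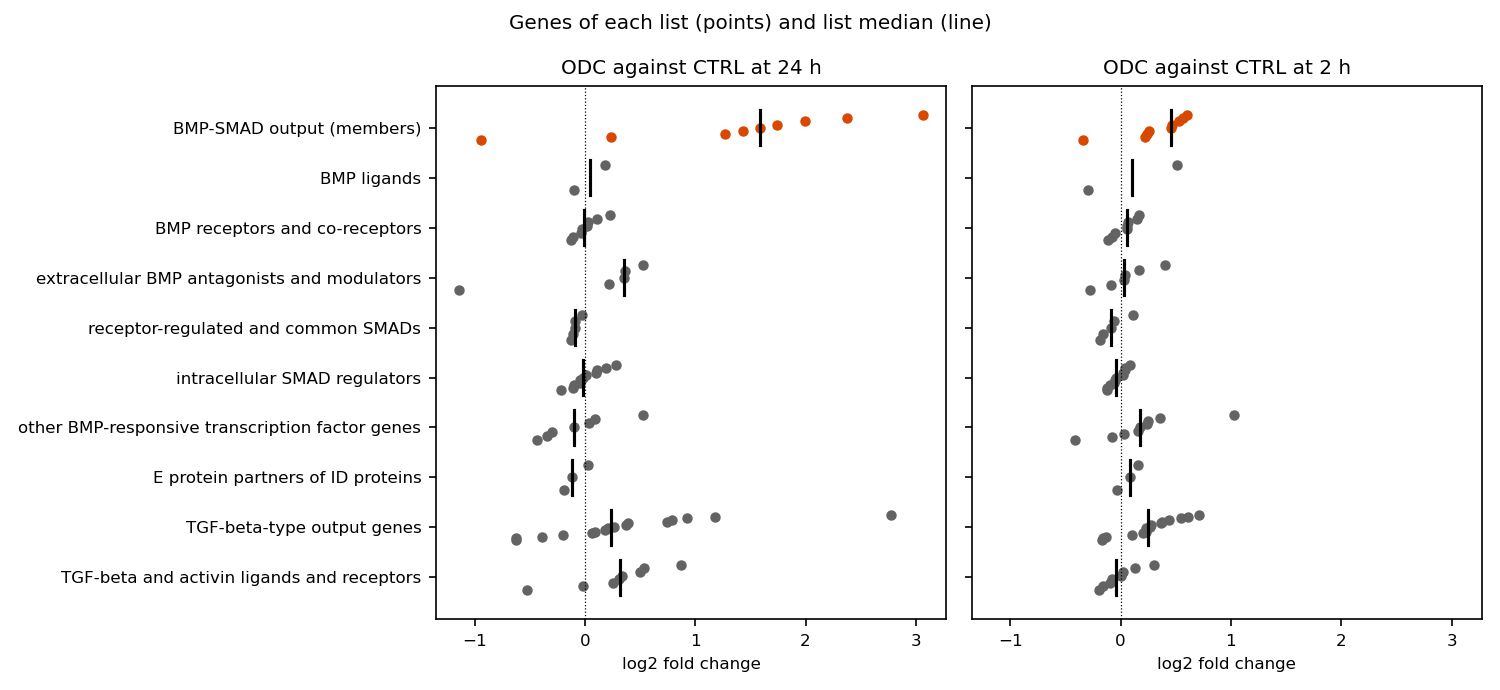
log2 fold change of ODC against CTRL (horizontal axis) for each measurable gene (points) of the BMP-type genes and of 9 pathway lists (rows), at 24 h (left) and 2 h (right), with a line at each median. At 24 h the BMP-type median is 1.59, while the list medians lie between -0.12 and 0.36.

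Between the 2 control sets, several pathway genes outside the 10 also differed. They are named after their values were seen, and time and labelled month again cannot be told apart. The ligand BMP2 was at 1.07, 2.49 and 1.01 CPM at 24 h and at 10.5 and 10.6 CPM at 2 h, a log2 fold change of -2.78 ± 0.368 (adjusted p = 0.000556, edgeR). The target HEY1 was at -1.83 ± 0.357 (adjusted p = 0.00464) and TOB1, an intracellular SMAD-binding repressor, at -1.31 ± 0.144 (adjusted p = 0.000198). Without CTRL 2 h replicate 1 the 3 genes were at -2.79, -1.98 and -1.16, with adjusted p of 0.00528, 0.0201 and 0.00345. Of the 9 measurable other BMP-responsive genes, 8 were below 0 and 3 of these had an adjusted p under 0.05. One of the 3, RUNX2, lost this without CTRL 2 h replicate 1 (adjusted p = 0.104, edgeR) and in 3 other fits that left out a control library. The 16 TGF-beta-type genes were divided, with 9 above 0 and 7 below. Of those below 0, SNAI1, TGFBI and SPHK1 had an adjusted p under 0.05, against 22.4% of all genes in either direction. Each of them lost this in a fit with 1 CTRL 2 h library left out. Without CTRL 2 h replicate 1, TGFBI was at -0.44. Without CTRL 2 h replicate 2, SNAI1 was at -1.25 and SPHK1 at -0.57.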

How the data were processed

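RNA was measured as stranded, single-end mRNA sequencing in 11 libraries. The authors deposited raw read counts per gene symbol for 26485 symbols, aligned to hg38 and counted with HTSeq 0.9.1; the submitters' processing notes also list STAR 2.7.0f and edgeR 3.26.8. The counts were not normalized or filtered. Groups came from the labels, which do not say that replicates were separate cultures, so p-values measure only the spread between these libraries. The replicate numbers follow accession order. Counts were tested with edgeR 4.0.16 (R 4.3.3), quasi-likelihood, TMM, filterByExpr (minimum count 10, minimum total 15), two-sided, with Benjamini-Hochberg adjustment over all genes. Each time was fitted alone, and differences between times in a joint fit. SE is the log2 fold change divided by the root of F. The genes and lists were chosen with earlier results of these data known. Named list genes had the smallest unadjusted p under 0.05, at most 3 per list and time; other list genes, such as BMP2, BMPR2, the carrier SMADs, the E proteins, HEY1, TOB1 and IL11, were named after their values were seen. Alternatives covered filtering, scaling, DESeq2 1.42.0, a joint fit, pairs and each library left out. Scripts were tested on simulated data. Figures used matplotlib 3.10.9. Replicates differed by more than sampling noise (chi-square 18.7 to 58.0 per gene). A single list gene is left unnamed and counts in its list's totals and medians.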

Additional observations from a re-analysis of the deposited data

How the results depend on the processing

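The direction of the 24 h values held for all 9 filtered genes in all 12 alternatives, and 7 were at least 2-fold higher in each except without ODC 24 h replicate 3 (6, with SMAD9 under 2-fold). Counts of calls depended on the fit. At 24 h the main 21 genes became 59 with every gene with at least 1 count, 145 with DESeq2, 95 in the joint fit, 176 with adjacent library numbers as pairs, and 2 to 53 with a library left out. The genes tested were 12689 in the main fit, 17624, 17624, 13333 and 12689 in those alternatives, and 12815 to 12873 with a library left out. Of the 9 genes, 1 was called in the main fit, 3, 6, 5 and 6 in those alternatives, and 0 to 2 with a library left out. This contrast chose the 9 genes, so nothing is read from these counts. ATOH8 ranged up to 3.44 without CTRL 24 h replicate 3. At 2 h, 0 genes were called in all alternatives except without CTRL 2 h replicate 2 (40), so leaving out a library gave 0 to 40. For the difference of effects, 2 genes became 7 with every gene, 26 with DESeq2 and 0 to 4 with a library left out. KRT18 between control sets was at 0.05, and at -0.65 (adjusted p = 0.00383, edgeR) with ODC libraries in place of CTRL. The cause of these shifts was not tested. The labels give the groups no shared replicate numbers, and what adjacent library numbers share is not stated. The precision is limited by 2 controls at 2 h, by few reads of ATOH8, ID4 and BAMBI in CTRL at 24 h, and by CTRL 24 h replicate 2, whose ID3 was 14.9 times under the highest control.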

Other observations

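Within groups, libraries high in BMP4 tended to be low in the other genes, a pattern seen in the values and not tested. In CTRL at 24 h the library highest in BMP4 (replicate 2) was the lowest in 6 of the 8 other measurable genes. In ODC at 24 h (replicate 2) the library highest in BMP4 was the lowest in 8 of 8, and in ODC at 2 h (replicate 1) in 4 of 8. That ODC 2 h library went the other way in ID3 and SMAD9, where it was the highest (76.9 and 19.3 CPM). In CTRL at 2 h the library higher in BMP4 was the lower in 8 of 8, but of only 2 libraries. There it was replicate 1, the library with the fibroblast collagen reads. After centring log2(CPM + 0.5) on the mean of each time, BMP4 had Pearson correlations from -0.92 (ID4) to -0.66 (SMAD7) with the other 8 genes over the 11 libraries, and from -0.94 (ID4) to -0.55 (SMAD7) over the 10 without CTRL 2 h replicate 1. These libraries share the treatment effect, so the values describe the libraries and carry no p.

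The other genes varied together on the same scale. SMAD6 and ATOH8 had r = 0.98, ID1 and ID2 0.97, and ID2 and ID3 0.95, whereas SMAD7 had 0.38 to 0.56 with the genes other than BMP4. Among 13324 other genes, the patterns most like that of ID1 were those of ME1 (0.95), MAPRE3 (0.94), HIST1H2AC (0.94), CCDC113 (0.94) and CDRT1 (0.93). Those most like ATOH8 were CDRT1 (0.98), ICOSLG (0.97), CLCF1 (0.96), TCP11L1 (0.94) and LRP1B (0.93). With 11 libraries and this many genes, high values are found by selection alone, and CDRT1, ICOSLG and LRP1B did not pass the filter on low counts at 24 h.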
